A study of Bos grunniens with 6 samples.

Results

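Somatostatin (SST, ENSBGRG00000001258) and pleiotrophin (PTN, ENSBGRG00000003344) are secreted proteins whose mRNA was measured in cultured yak hair follicle cells. They are 2 of the 15646 genes of the deposited expression table and were found by their gene symbols. They were chosen by their measured FPKM, because their levels in dermal papilla cells lay far above those in hair matrix cells. That difference is therefore a description, with no test. The cells came from the skin of yak (Bos grunniens) of wild-type genotype. Dermal papilla cells (DPC) form the mesenchymal core of the hair bulb and send signals to the epithelium around it. Hair matrix cells (HMC) belong to that epithelium and divide to build the hair shaft. Each group had 3 libraries of cultured cells, named by their replicate numbers. Both cell types grew without any further treatment in DMEM/F12 with 10% FBS, penicillin-streptomycin, EGF at 20 ng/mL and IGF1 at 10 ng/mL, so both groups carried the same growth factors. The labels call the libraries biological replicates but do not say whether they came from separate animals, and they give no age. The p-values therefore measure the spread between these libraries, which may be technical.

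Somatostatin is a small peptide hormone cut from a larger precursor, known from the hypothalamus, the delta cells of the pancreatic islet and the gut, where it lowers the secretion of other hormones through a family of inhibitory G-protein-coupled receptors. Pleiotrophin is a heparin-binding growth factor of the midkine family, made by mesenchyme and neural tissue in development and found in bone and healing tissue. It binds the sugar chains of proteoglycans and acts through the receptor phosphatase PTPRZ1, whose activity it lowers, and through other surface proteins such as syndecans, nucleolin, integrin αvβ3 and lipoprotein receptors.

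The values are FPKM, fragments scaled to transcript length and to the mapped fragments of the library, which set genes of different length on a common scale. Whole reads could be recovered from them and summed to 13.1 to 13.4 M (M, mega) per DPC library and 13.7 to 14.0 M per HMC library. The true reads of a gene may be any whole multiple of those recovered, so these sums are lower limits. All 22 genes of a list of mesenchyme markers were higher in DPC in limma's test, a call made for 29.7% of all genes tested, with summed levels of 23880 to 25150 FPKM in DPC and 847.1 to 972.2 FPKM in HMC. Of 18 epithelial markers in the table, 17 were higher in HMC, a call made for 46.2% of all genes, and KRT14 did not pass. The 18 summed to 85.0 to 109.8 FPKM in DPC and 14790 to 15220 FPKM in HMC. Most of the HMC sum was the keratins KRT19, KRT7 and KRT8, at means of 4090, 3686 and 3352 FPKM. Of the markers nearer to the labelled identities, the papilla markers ALPL and CORIN (CRN) were close to 0 in DPC, at 0.0145 and 0.0582 FPKM, whereas RSPO3 was at 58.1 ± 2.14 FPKM (SD, n = 3) in DPC and 0.522 ± 0.255 FPKM in HMC. The matrix marker HOXC13 (HOX3G) was at 0.767 ± 0.249 (DPC) and 0.665 ± 0.215 FPKM (HMC) and did not pass, and LEF1 was higher in HMC, at 5.91 ± 0.168 against 1.09 ± 0.257 FPKM. HMC replicate 3 lay apart from the other HMC libraries on the second principal component, at 13.9 against -9.3 and -4.3, a component that held 0.77% of the variance.

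Somatostatin mRNA was at 5831, 5701 and 5902 FPKM in the 3 DPC libraries. In the HMC libraries it was at 4.753, 7.018 and 8.567 FPKM. The lowest DPC library was 666 times the highest HMC library. The mean was 5811 ± 102 FPKM over the 3 DPC libraries and 6.78 ± 1.92 FPKM over the 3 HMC libraries (SD, n = 3 each), a ratio of means of 857. On the log2(FPKM + 1) scale the difference was 9.58, which was rank 1 of the 11883 genes whose mean reached 0.5 FPKM. Pleiotrophin, described next, had rank 3 in that order.

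Pleiotrophin mRNA was at 415.5, 418.1 and 414.2 FPKM in the 3 DPC libraries. In the HMC libraries it was at 1.583, 1.788 and 3.539 FPKM. The lowest DPC library was 117 times the highest HMC library. The mean was 415.9 ± 1.95 FPKM over the 3 DPC libraries and 2.30 ± 1.08 FPKM over the 3 HMC libraries (SD, n = 3 each), a ratio of means of 181 and a log2(FPKM + 1) difference of 7.03. In mRNA of a whole culture, fewer cells that carry a transcript and less transcript per cell cannot be told apart, for either gene.

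**Figure D1:**
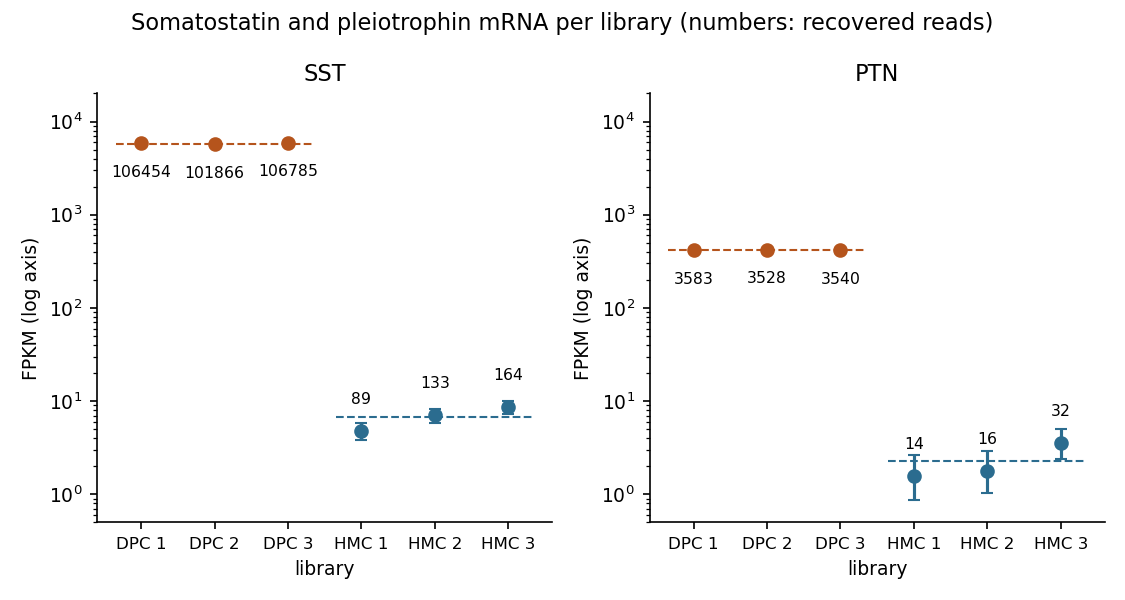
Level of somatostatin (SST, left) and pleiotrophin (PTN, right) in each library, in FPKM on a log axis, with the number of recovered reads beside each point; dashed lines are group means and bars are 95% exact Poisson intervals, which cover counting error only. The DPC points lie between 5701 and 5902 FPKM for SST and between 414.2 and 418.1 FPKM for PTN, and the HMC points lie below 10 FPKM for both genes.

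The reads behind these values differed widely in number. Somatostatin had 106454, 101866 and 106785 recovered reads in DPC and 89, 133 and 164 in HMC. Its HMC values had exact 95% Poisson intervals of 3.82 to 5.85, 5.88 to 8.32 and 7.31 to 9.98 FPKM, so the interval of replicate 1 lay below those of replicates 2 and 3. Pleiotrophin had 3583, 3528 and 3540 recovered reads in DPC but 14, 16 and 32 in HMC. Its HMC intervals of 0.865 to 2.66, 1.02 to 2.90 and 2.42 to 5.00 FPKM overlapped one another. These intervals cover counting error only, and would be narrower if the true reads were a multiple of those recovered.

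By level, somatostatin stood among the structural genes of the papilla cell. It had rank 5 in each DPC library, behind thymosin beta 4 (TMSB4X, listed as TB4X) at 19370 ± 975 FPKM, thymosin beta 10 (TMSB10, listed as PTMB10) at 10210 ± 62.1 FPKM, smooth muscle actin (ACTA2, listed as Actsa) at 9321 ± 181 FPKM and beta actin (ACTB) at 7345 ± 274 FPKM. Below it came a gene without a symbol at 5587 ± 127 FPKM, the intermediate filament vimentin (VIM) at 5517 ± 231 FPKM, the actin-binding profilin (PFN1) at 5238 ± 134 FPKM and the collagen chain COL1A2 at 5051 ± 202 FPKM. The elongation factor EEF1A1 (EEF1A) and the collagen chain COL1A1 followed at 4745 ± 187 and 4672 ± 299 FPKM. No other gene had a range over the 3 DPC libraries that overlapped the range of somatostatin. Actins share sequence and may share reads, so their single values are uncertain. Somatostatin made up 1.05%, 1.04% and 1.06% of all FPKM in the 3 DPC libraries and 0.795%, 0.778% and 0.805% of recovered reads. By recovered reads, which favour long transcripts, its rank was 10 in each DPC library.

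Among the matrix cell libraries somatostatin had ranks 8582, 7670 and 7115, which placed it 61.6%, 55.3% and 51.2% of the way down the genes above 0 in those libraries, near or below the middle. It made up between 0.000729% and 0.00132% of all FPKM there. Pleiotrophin had ranks 174, 175 and 173 in DPC and 10348, 10185 and 9180 in HMC. The level of 13 other genes overlapped that of pleiotrophin over the DPC libraries, 7 with a higher mean and 6 with a lower one, so its place in the order is known only within that stretch. Its nearest neighbours there were the RNA-binding protein HNRNPA2B1 (Hnrpa2b1) at 416.5 ± 12.2 FPKM and the ribosomal protein RPL17 at 414.1 ± 7.83 FPKM. By recovered reads pleiotrophin had ranks 538, 533 and 543 in DPC.

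**Figure D2:**
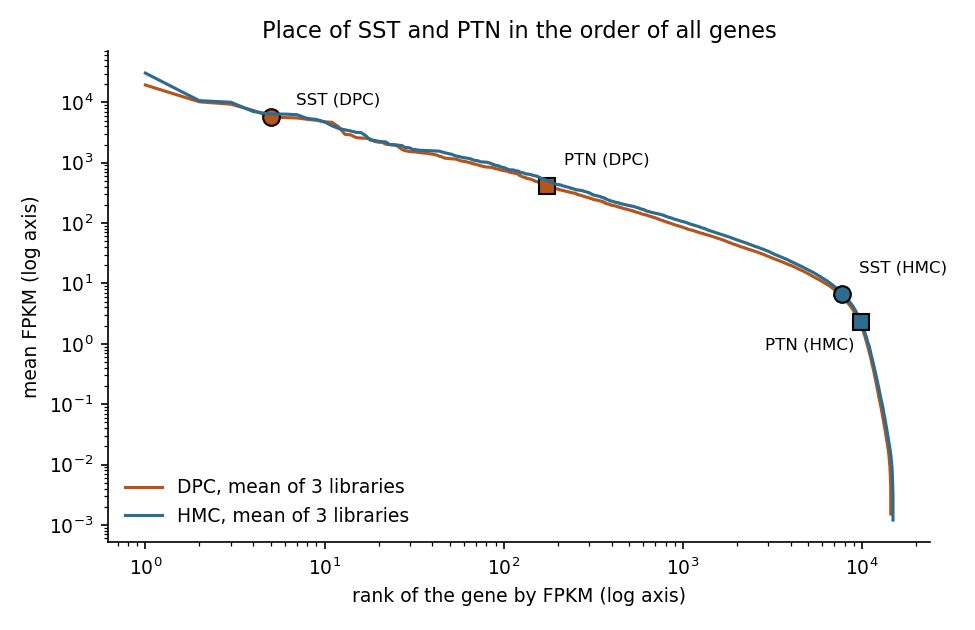
Mean FPKM of each gene against its rank, both on log axes, as 1 line for DPC and 1 for HMC (mean of 3 libraries each), with somatostatin (circles) and pleiotrophin (squares) marked on each. In DPC they have ranks 5 and 174, and in HMC the means of 6.78 and 2.30 FPKM place them at ranks 7768 and 9874.

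The table's annotation terms place each gene among the genes that carry the same term, and these terms are incomplete. Somatostatin was the most abundant of 41 genes annotated with hormone activity in every DPC library and held 89.3% of the summed FPKM of that term. The next gene of the term was FBN1, the microfibril protein fibrillin whose end piece is also released as a hormone, at 368 ± 21.6 FPKM. In HMC somatostatin had rank 11 or 12 within the term and 1.25% of its FPKM. It was also the most abundant in DPC of 663 genes of the extracellular space, ahead of COL1A2, with 10.9% of the term's FPKM, and had ranks 216 to 261 there in HMC. Pleiotrophin had rank 2 of 86 growth factor genes in every DPC library, behind TIMP1, a metalloproteinase inhibitor annotated with growth factor activity, at 1481 ± 53.1 FPKM, and held 12.6% of the term's FPKM. In HMC its rank in that term was 44 to 49. Among 89 genes annotated with heparin binding pleiotrophin had rank 7 in every DPC library and 41 to 53 in HMC. Neither the growth factor term nor the heparin term held CCN2 (CTGF), which was at 2602 ± 95.4 FPKM in DPC. The ranks therefore hold only among the annotated genes.

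The ratio of somatostatin to pleiotrophin differed between the cell types as well. It was 14.0, 13.6 and 14.2 in the DPC libraries and 3.00, 3.93 and 2.42 in the HMC libraries, on the FPKM scale. This difference follows from the larger DPC to HMC ratio of somatostatin.

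The 2 genes were tightly repeated between papilla cell cultures and widely spread between matrix cell cultures. The coefficient of variation (CV, SD over mean) of somatostatin in DPC was 1.75%, against 0.309% from counting error alone. Among 11 genes within 2-fold of its level, the median CV in DPC was 3.74%, and 1 of the 11 had a lower one. The CV of pleiotrophin in DPC was 0.469%, below the 1.68% that the recovered reads give as counting error. Among 293 genes within 2-fold of its level the median CV was 2.46%, and 11 of them, or 3.75%, had a lower one. In HMC the CV was 28.3% for somatostatin, where counting gives 8.82%, and 46.7% for pleiotrophin, where counting gives 22.0%. Of 3577 genes near somatostatin in HMC 97.8% had a lower CV, with a median of 8.0%, and of 2004 genes near pleiotrophin 97.1% had a lower CV, with a median of 12.7%. These genes were matched by FPKM and not by reads, and the counting error of pleiotrophin in HMC alone, 22.0%, exceeds their upper quartile of 19.8%. A CV over 3 libraries is itself imprecise, and no test of it was made.

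In the matrix cells both genes were highest in HMC replicate 3 and lowest in HMC replicate 1. Replicate 3 was 1.80 times replicate 1 for somatostatin and 2.24 times for pleiotrophin. Of the 22 mesenchyme markers, 18 were also highest in HMC replicate 3, with a median ratio of replicate 3 to replicate 1 of 1.14 and a range of 0.629 to 2.77. Over all 11883 genes tested, 37.1% were highest in HMC replicate 3. As a share of the DPC mean, the HMC libraries held 0.0818%, 0.121% and 0.147% of somatostatin and 0.381%, 0.430% and 0.851% of pleiotrophin. The same share for the mesenchyme markers ran from 0.764% for the transcription factor TWIST1 (TWIST) to 24.1% for the matrix protein POSTN, with a median of 2.66%. None of the 22 markers had a lower mean share than somatostatin, at 0.117%, or pleiotrophin, at 0.554%. The 2 genes were chosen for a large difference between the groups, so their low shares follow from that choice. The part of these markers' transcripts in the HMC values of the 2 genes was not tested.

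**Figure D3:**
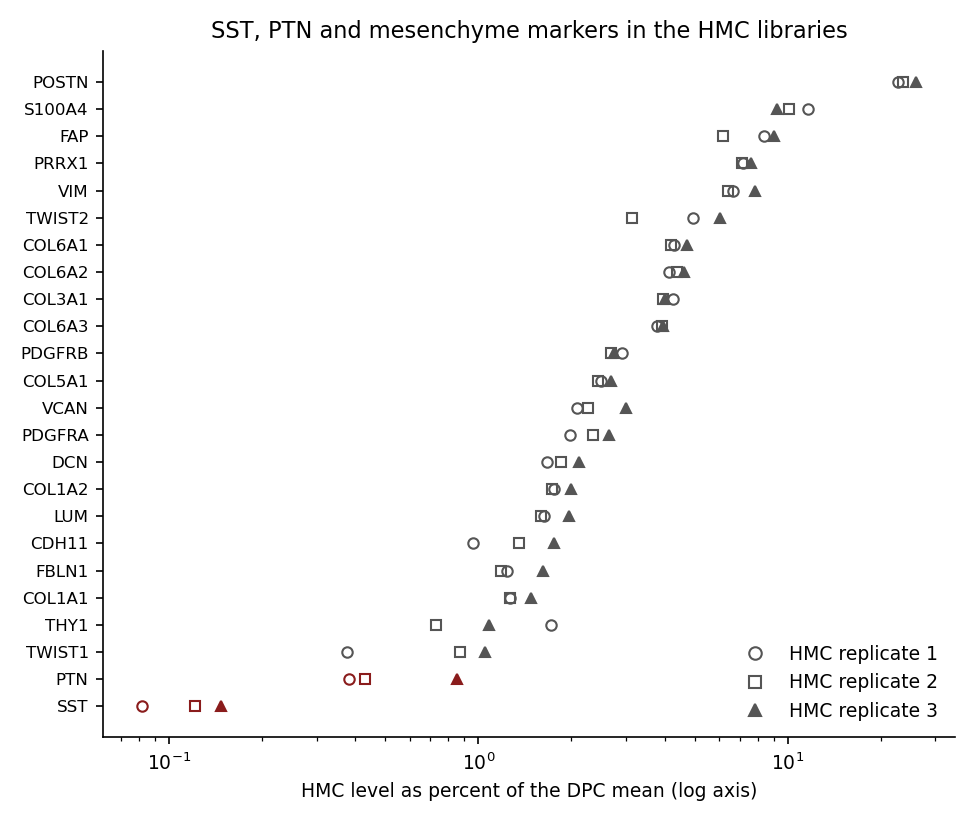
Level in each HMC library as a percentage of the DPC mean, on a log axis, for somatostatin, pleiotrophin and the 22 mesenchyme markers, with 1 symbol per HMC replicate. Somatostatin (0.0818% to 0.147%) and pleiotrophin (0.381% to 0.851%) have the lowest means, which follows from their choice by this difference. Replicate 3 is the highest of the 3 for both.

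The genes with the most similar profiles were sought by Euclidean distance between centred log2(FPKM + 1) values over the 6 libraries. This measure ranks genes mainly by the size of the difference between the groups. Nearest to pleiotrophin were TWIST1 at a distance of 0.676, with means of 379.7 FPKM (DPC) and 2.90 FPKM (HMC), and the gene listed as PRSP at 0.753, with 754.9 and 5.25 FPKM. The smooth muscle actin ACTG2 (Acta3) at 0.791, the gene listed as PS20 at 0.960 and the basement membrane protein nidogen (NID1, listed as NID) at 1.02 completed the 5 nearest. The gene listed as UNQ1940/PRO4423 was nearest to somatostatin, at 2.40, with means of 435.0 FPKM (DPC) and 1.09 FPKM (HMC). Pleiotrophin came next, at 3.14, followed by PRSP at 3.30, TWIST1 at 3.57 and PS20 at 3.69. No gene lay as near to somatostatin as the 5 nearest did to pleiotrophin. By this measure that restates the size of its difference between the groups, the largest of all genes tested.

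The genes that lie beside each of them on the chromosome are given as a description. The members had ranks 5 and 174 by mean in DPC, so lower DPC levels of their neighbours follow from the choice of the members. In the gene order of the RefSeq yak assembly, the gene next to SST on one side is RTP4 (IFRG28), a chaperone of olfactory receptors, at 2.68 ± 0.50 FPKM in the papilla and 0.113 ± 0.0497 FPKM in the matrix cells. On the other side, with 1 gene between, the repressor BCL6 (BCL5) was at 11.0 ± 0.451 FPKM in DPC against 17.1 ± 0.929 in HMC. Beside PTN, the diacylglycerol kinase DGKI was listed at 0 in every DPC library and in 2 of 3 HMC libraries. Myotrophin (MTPN), a capping protein regulator with 1 gene between it and PTN, was lower in DPC, at 195.5 ± 28.6 against 848.9 ± 99.1 FPKM. In limma's test with Benjamini-Hochberg adjusted p over all genes, RTP4 was higher in DPC (log2 difference 1.72, SE 0.12, adjusted p = 2.23e-06), while BCL6 (-0.59, SE 0.065, adjusted p = 5.42e-05) and MTPN (-2.12, SE 0.11, adjusted p = 5.6e-07) were higher in HMC. All log2 differences here are DPC minus HMC on the log2(FPKM + 1) scale, which understates the change of low genes.

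The pathways of somatostatin and pleiotrophin were read against a background in which most genes differed. Of the 11883 genes tested, 75.9% passed an adjusted p of 0.05 in limma, 29.7% higher in DPC and 46.2% higher in HMC, with a median log2 difference of -0.15. Of these calls 3531 were higher in DPC and 5489 higher in HMC. The counts were 4317 and 4521 after median-of-ratios rescaling, and 4730 and 4092 after quantile normalization, with medians of -0.02 and 0.04. The table held 82 somatostatin pathway genes, of which 57 were tested, and 18 were higher in DPC, 30 higher in HMC and 9 did not pass, with a median log2 difference of -0.26. The 84.2% called compares with the background of 75.9%. The table held 69 pleiotrophin pathway genes, of which 59 were tested, and 26 were higher in DPC, 24 higher in HMC and 9 did not pass, 84.7% in all, with a median of 0.13. Quantile normalization changed the pleiotrophin split to 33 higher in DPC and 19 higher in HMC. With a filter at a mean of 5 FPKM, 17 genes of the pleiotrophin pathway were higher in DPC.

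No somatostatin receptor passed the filter on low values in either cell type. SSTR1 was listed at 0 in 5 of the 6 libraries and at 0.0317 FPKM in the remaining DPC library. SSTR2 was at 0 in 5 of the 6 and at 0.258 FPKM in the remaining HMC library. The other receptors, SSTR3, SSTR4 and SSTR5, and the related ligand cortistatin (CORT) were not analysed here.

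Enzymes that cut and finish peptide precursors were present in both cell types, but different ones were high in each. The table held 12 such genes, and the 11 tested all passed, against 75.9% of all genes tested. Of the 11, 5 were higher in DPC and 6 higher in HMC, against 29.7% and 46.2% of all genes. The median log2 difference was -0.26. PCSK1N, the precursor of an inhibitor of the convertase PCSK1, was at 2.17 ± 0.649 (DPC) and 266.5 ± 10.1 FPKM (HMC) (log2 difference -6.42, SE 0.13, limma adjusted p = 1.7e-09). Cathepsin L (CTSL, listed as CTSL1), a protease that also acts in secretory granules, was at 92.2 ± 3.91 FPKM in the papilla and 1753 ± 64.8 FPKM in the matrix cells (-4.23, SE 0.043, limma adjusted p = 5.88e-11). The secreted carboxypeptidase CPZ was higher in DPC, at 22.7 ± 0.687 against 0.294 ± 0.0639 FPKM (4.19, SE 0.074, limma adjusted p = 6.89e-10).

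The convertases themselves, named for their role after their values were seen, divided likewise. PCSK1, a main convertase of endocrine cells, did not pass the filter, at 0.164, 0.268 and 0.397 FPKM in DPC and at 0, 0 and 0.0626 FPKM in HMC. PCSK2 was not analysed here. The convertases PCSK6 (Pace4) and PCSK5 (PC5) were higher in DPC, at 7.71 ± 0.554 against 0.182 ± 0.0268 FPKM and at 3.22 ± 0.463 against 0.164 ± 0.058 FPKM. FURIN (FUR), the convertase of the Golgi, was higher in HMC, at 92.0 ± 4.07 against 35.5 ± 0.732 FPKM, and so was carboxypeptidase E (CPE), which trims the cut peptides, at 6.96 ± 0.541 against 3.34 ± 0.274 FPKM. PAM, the enzyme that amidates peptide ends, was higher in DPC, at 136.2 ± 1.71 against 44.2 ± 0.608 FPKM. The limma adjusted p-values of these 5 lay between 3.42e-09 for PAM and 2.43e-05 for CPE.

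Genes of dense-core granules, the vesicles that store peptide hormones, summed to 174.6 to 179.1 FPKM in DPC and 173.9 to 180.5 FPKM in HMC. The table held 18, of which 12 were tested, and 2 were higher in DPC, 6 higher in HMC and 4 did not pass. The 66.7% called compares with 75.9% of all genes, and the median log2 difference was -0.36. SYTL2, which docks vesicles at the membrane, was the most abundant and higher in DPC, at 99.8 ± 2.09 against 11.3 ± 1.77 FPKM (3.05, SE 0.098, limma adjusted p = 2.06e-08). CADPS2 (CAPS2), which primes dense-core vesicles for release, was at 0.129 ± 0.0177 FPKM in DPC against 8.07 ± 0.393 in HMC (-3.01, SE 0.078, limma adjusted p = 5.87e-09). The fusion protein STX1A was at 0.542 ± 0.241 (DPC) and 11.0 ± 1.51 FPKM (HMC) (-2.96, SE 0.14, limma adjusted p = 2e-07).

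Regulators known to act on the somatostatin promoter in other tissues showed no common direction. The table held 18, of which 17 were tested, and 5 were higher in DPC, 8 higher in HMC and 4 did not pass. The 76.5% called compares with 75.9% of all genes, and the median log2 difference was -0.11. The split became 8 and 7 after median-of-ratios rescaling and 8 and 5 after quantile normalization. CREB1, the cAMP-responsive factor that binds this promoter, was at 10.1 ± 0.707 FPKM in the papilla and 9.61 ± 0.202 FPKM in the matrix cells and did not pass (0.06, SE 0.069, limma adjusted p = 0.453). It was named for its role after its value was seen. PRKACB, a catalytic subunit of the cAMP-dependent kinase, was higher in DPC, at 11.8 ± 0.145 against 1.22 ± 0.350 FPKM (2.53, SE 0.12, limma adjusted p = 2.28e-07). The regulatory subunit PRKAR1A, the most abundant of the list, was at 206.5 ± 3.41 FPKM in DPC against 318.8 ± 1.31 in HMC (-0.62, SE 0.031, limma adjusted p = 3.21e-07). HHEX (HEX), a factor that delta cells need in the islet, was at 0.292 ± 0.244 (DPC) and 27.4 ± 1.97 FPKM (HMC) (-4.47, SE 0.13, limma adjusted p = 1.42e-08). PAX6, another islet factor, was also higher in HMC, at 9.10 ± 0.693 against 0.979 ± 0.388 FPKM (-2.37, SE 0.14, limma adjusted p = 8.94e-07).

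Of 22 symbols listed as markers of delta and other endocrine cells, 12 were found in the table and the others were not analysed here. The 6 that did not pass the filter were CHGA, SYP, GCG, PYY, GHSR and KRT20, the highest of which had a mean of 0.343 FPKM in DPC (PYY). Chromogranin A (CHGA), a granule protein of endocrine cells, was listed at 0 in every DPC library, and synaptophysin (SYP) was at 0.0151, 0 and 0 FPKM there. The remaining 6 passed the filter and the test, 4 higher in DPC and 2 higher in HMC, against 29.7% and 46.2% of all genes. Among the 4, the enzymes UCHL1 and ENO2, found in neurons and endocrine cells, were at 75.04 ± 5.82 against 49.8 ± 1.84 FPKM (0.58, SE 0.064, limma adjusted p = 5.11e-05) and at 8.70 ± 0.441 against 2.87 ± 0.38 FPKM (1.33, SE 0.091, limma adjusted p = 2.53e-06). These 2 and the 6 that did not pass the filter were named after their values were seen. The LIM factor ISL1 was higher in DPC, at 5.40 ± 1.06 against 0.545 ± 0.371 FPKM (2.06, SE 0.19, limma adjusted p = 1.6e-05), as was the retinol carrier RBP4, at 230 ± 11.9 against 41.0 ± 4.62 FPKM (2.46, SE 0.082, limma adjusted p = 2.62e-08). The adhesion protein NCAM1 (NCAM) was higher in HMC, at 8.09 ± 0.870 against 1.40 ± 0.070 FPKM (-1.92, SE 0.09, limma adjusted p = 2.35e-07). UCHL1, ENO2, RBP4, ISL1 and NCAM1 are also expressed by cells that are not endocrine.

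The other peptide hormones of the list stood far below somatostatin in the papilla cells. Summed, the 23 in the table came to between 148.8 and 151.0 FPKM in DPC and between 313.9 and 345.5 FPKM in HMC. Of 12 tested 3 were higher in DPC, 8 higher in HMC and 1 did not pass. Over all genes 29.7% were called higher in DPC and 46.2% higher in HMC. The median log2 difference of the list was -0.81. Endothelin 1 (EDN1), a vasoconstrictor, was at 0.883 ± 0.154 FPKM in the papilla and 103 ± 5.07 FPKM in the matrix cells (-5.79, SE 0.077, limma adjusted p = 1.88e-10). The adrenomedullin peptides, which relax vessels, differed in opposite directions. ADM was higher in DPC, at 29.8 ± 2.50 against 1.00 ± 0.184 FPKM (3.94, SE 0.097, limma adjusted p = 4.28e-09), and ADM2 (AM2) was higher in HMC, at 66.2 ± 1.48 against 0.351 ± 0.354 FPKM (-5.67, SE 0.17, limma adjusted p = 1.42e-08). The activin subunit INHBA was the most abundant of the list, at 89.1 ± 0.492 FPKM in DPC against 130.8 ± 10.8 in HMC (-0.54, SE 0.06, limma adjusted p = 5.59e-05).

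For pleiotrophin, the classical signalling receptors were near 0 in both cell types, while several proteoglycan and lipoprotein receptors were abundant. PTPRZ1 (HTPZP2), its receptor phosphatase, was listed at 0 in 5 of the 6 libraries and at 0.0204 FPKM in the remaining HMC library. The kinase ALK was above 0 in all 6 libraries, but its highest value was 0.271 FPKM. Neither passed the filter, and nor did LRP2, PTPRB (PTPB) or GPC2, whose highest values were 0.0155, 0.041 and 0.470 FPKM. The 13 tested genes of the list, which also holds the related factor midkine, all passed, against 75.9% of all genes. Of the 13, 6 were higher in DPC and 7 higher in HMC, with a median log2 difference of -0.23.

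The heparan sulfate proteoglycan syndecan 2 (SDC2) was at 235.9, 233.0 and 236.4 FPKM in DPC and at 8.15, 6.77 and 9.24 FPKM in HMC. The endocytic receptor LRP1 (A2MR) was at 288.0, 296.6 and 287.5 FPKM in DPC and at 13.3, 12.9 and 12.8 FPKM in HMC. For both the groups lay far apart, with log2 differences of 4.71 (SE 0.092, limma adjusted p = 1.2e-09) for SDC2 and 4.38 (SE 0.041, limma adjusted p = 4.99e-11) for LRP1. PTPRS, a receptor phosphatase that binds sulfated sugar chains, was higher in DPC, at 24.5 ± 0.549 against 2.41 ± 0.286 FPKM (2.91, SE 0.079, limma adjusted p = 7.52e-09). The chondroitin sulfate proteoglycan CSPG4 (MCSP) was at 5.20 ± 0.710 (DPC) and 1.36 ± 0.124 FPKM (HMC) (1.39, limma adjusted p = 4.55e-06). NOTCH2 was higher in DPC by 0.43 on the log2 scale (limma adjusted p = 2.41e-05), at 76.3 ± 2.18 against 56.5 ± 0.628 FPKM. Midkine (MDK, listed as MK1), the other member of the pleiotrophin family, was at 30.9, 28.4 and 32.1 FPKM in DPC and at 23.9, 22.5 and 18.0 FPKM in HMC. Its log2 difference was 0.50 (SE 0.1, limma adjusted p = 0.00238), against 7.03 for pleiotrophin.

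The other partners of pleiotrophin were higher in HMC. Syndecan 4 (SDC4) was at 90.3 ± 3.38 FPKM in the papilla and 258.6 ± 21.9 FPKM in the matrix cells (-1.51, SE 0.065, limma adjusted p = 1.29e-07), and syndecan 1 (SDC1) at 116 ± 4.91 and 279 ± 14.7 FPKM (-1.26, SE 0.051, limma adjusted p = 8.88e-08). Both chains of integrin αvβ3 were higher in HMC, ITGB3 (GP3A) at 230.2 ± 31.1 against 28.1 ± 1.07 FPKM (-2.98, SE 0.093, limma adjusted p = 1.79e-08) and ITGAV at 146 ± 16.2 against 84.4 ± 5.06 FPKM (-0.78, SE 0.083, limma adjusted p = 4.14e-05). The lipoprotein receptors LRP8 (APOER2) and LRP6 were higher in HMC by log2 differences of -1.13 and -0.97. Nucleolin (NCL), a nucleolar protein that also binds pleiotrophin at the cell surface, was at 289.8 ± 2.87 FPKM in DPC against 341.9 ± 49.8 in HMC, just past the threshold (-0.23, SE 0.091, limma adjusted p = 0.0488). Its call was lost in most of the alternative settings, among them without HMC replicate 3 (-0.12, limma adjusted p = 0.0922) and its direction reversed under quantile normalization (0.05, limma adjusted p = 0.683).

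**Figure D4:**
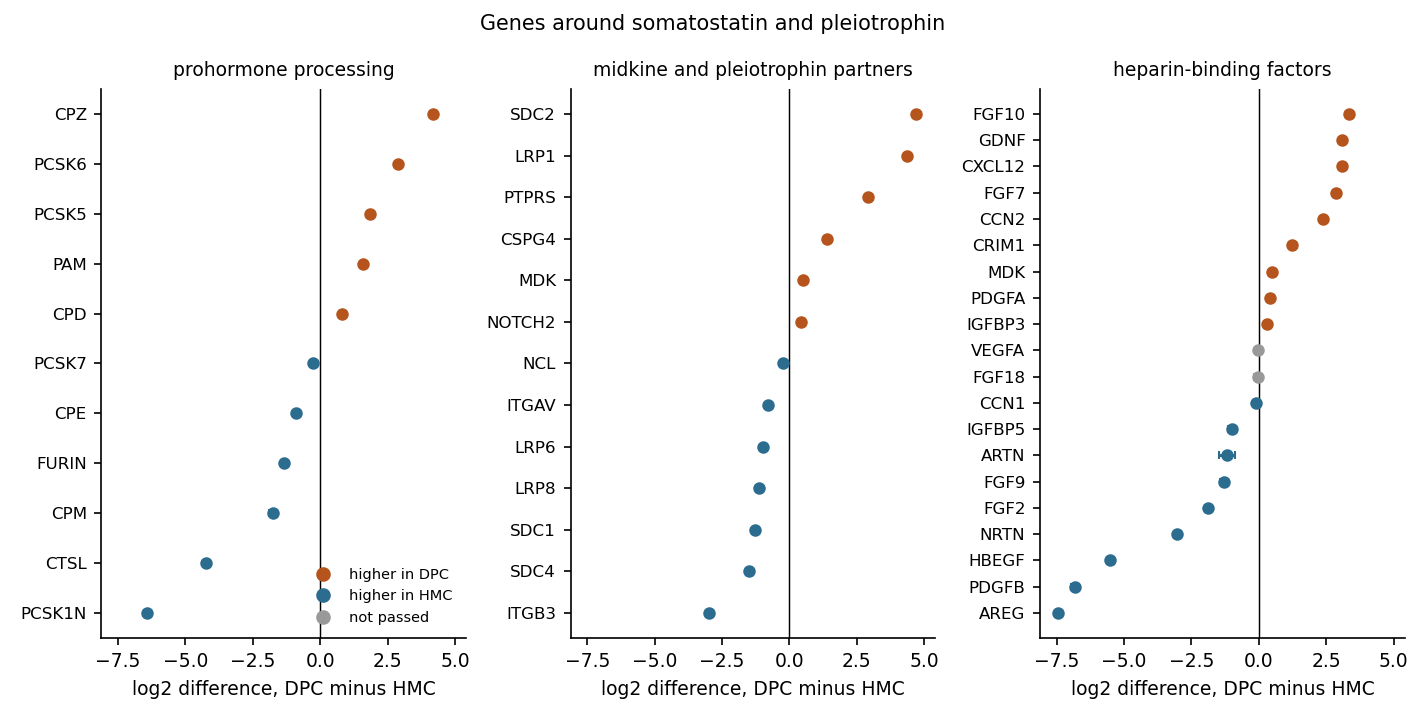
Log2(FPKM + 1) difference, DPC minus HMC, of each tested gene among the precursor-processing enzymes (left), the partners of pleiotrophin with midkine (middle) and the heparin-binding factors (right), with colours for the direction called by limma and bars for the SE. The points run from -7.44 for AREG to 4.71 for SDC2, and each panel holds genes on both sides of 0.

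Proteins on which PTPRZ1 acts, whose phosphorylation pleiotrophin raises, were mostly higher in the papilla cells, although PTPRZ1 itself was near 0. All 6 were tested and passed, 5 higher in DPC and 1 higher in HMC, against 29.7% and 46.2% of all genes tested. Of the 6, 2 were at least 2-fold higher in DPC, and 6 genes are too few to speak for a pathway. The median log2 difference was 0.79, and after quantile normalization the split was 5 and 0. The kinase FYN was at 24.9 ± 3.34 (DPC) and 1.02 ± 0.414 FPKM (HMC) (3.70, SE 0.15, limma adjusted p = 1.02e-07). The membrane skeleton protein ADD2 (ADDB) was at 14.1 ± 0.746 FPKM in the papilla and 1.94 ± 0.131 FPKM in the matrix cells (2.36, SE 0.075, limma adjusted p = 1.9e-08). The scaffold MAGI1 followed at 23.8 ± 0.869 against 11.7 ± 1.75 FPKM (0.98, SE 0.1, limma adjusted p = 3.25e-05). Beta-catenin (CTNNB1), the most abundant, was at 318 ± 14.5 FPKM in DPC against 275.9 ± 6.86 in HMC (0.20, SE 0.042, limma adjusted p = 0.00237). The member higher in HMC was GIT1, at 21.9 ± 1.45 against 16.6 ± 1.64 FPKM, named after its value was seen.

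Enzymes that build or edit the sulfated sugar chains that pleiotrophin binds had no common direction. The table held 24, of which 21 were tested, and 7 were higher in DPC, 7 higher in HMC and 7 did not pass. The 66.7% called compares with 75.9% of all genes, and the median log2 difference was 0.13. The split was 11 and 6 after median-of-ratios rescaling and 12 and 5 after quantile normalization. CHSY3 (CHSY2), which extends chondroitin chains, was at 11.3 ± 0.954 (DPC) and 0.432 ± 0.148 FPKM (HMC) (3.10, SE 0.1, limma adjusted p = 2.91e-08). The extracellular sulfatase SULF1 (KIAA1077), which removes sulfate from heparan sulfate, was at 22.9 ± 1.07 FPKM in the papilla and 1.96 ± 0.15 FPKM in the matrix cells (3.01, SE 0.072, limma adjusted p = 3.64e-09). XYLT1 (XT1), which starts the chains, was higher in DPC at 2.50 ± 0.242 against 0.195 ± 0.0723 FPKM. DSE, which turns chondroitin into dermatan sulfate, was the most abundant, at 64.1 ± 1.13 FPKM in DPC against 28.3 ± 1.87 in HMC. These enzymes were named for size of difference or abundance, and all were higher in DPC. Of the 7 higher in HMC, NDST1 (HSST) differed most, at 31.6 ± 0.905 against 12.1 ± 0.703 FPKM, and was named after its value was seen.

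Other heparin-binding factors were divided evenly between the cell types with FPKM as deposited. The table held 22, of which 20 were tested, with a median log2 difference of -0.02. Of the 20, 9 were higher in DPC, 9 higher in HMC and 2 did not pass. Over all genes 29.7% were called higher in DPC and 46.2% higher in HMC, so an even split is not the background split. The split was 10 and 8 after median-of-ratios rescaling and 11 and 8 after quantile normalization. The matrix cells carried the EGF receptor ligand amphiregulin (AREG), at 229.8 ± 14.0 against 0.330 ± 0.00356 FPKM (-7.44, SE 0.062, limma adjusted p = 4.39e-11). They also carried the growth factor PDGFB, at 142.5 ± 2.06 against 0.278 ± 0.255 FPKM (-6.83, SE 0.13, limma adjusted p = 8.68e-10), and HBEGF (DTR), at 79.9 ± 3.80 against 0.759 ± 0.253 FPKM (-5.53, SE 0.11, limma adjusted p = 1.22e-09). The matricellular protein CCN2 (CTGF) was the most abundant factor of this list in DPC and exceeded pleiotrophin there, at 2602 ± 95.4 FPKM against 500.1 ± 1.78 FPKM in HMC (2.38, SE 0.032, limma adjusted p = 1.97e-10). Some other factors of the list were named after their values were seen and do not stand for a group. FGF7 (KGF) was at 9.27 ± 0.395 (DPC) and 0.398 ± 0.184 FPKM (HMC), CXCL12 (SDF1) at 9.30 ± 1.00 and 0.218 ± 0.0492 FPKM, and FGF10 at 10.0, 8.56 and 9.17 FPKM in DPC and listed at 0 in all 3 HMC libraries. Their limma adjusted p-values were 5.28e-08 for FGF7, 1.67e-08 for CXCL12 and 4.95e-09 for FGF10, all higher in DPC. VEGFA (VEGF), at 26.8 ± 0.478 against 27.0 ± 0.602 FPKM, and FGF18, at 1.10 ± 0.208 against 1.15 ± 0.307 FPKM, did not pass (limma adjusted p = 0.825 and 0.845), and HGF, at 0.531 (DPC) and 0.0391 FPKM (HMC), was not tested.

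Pleiotrophin and somatostatin are also made by neural tissue, and cultures of skin can hold vascular, immune and pigment cells, so markers of other cell types are given beside them. The table held 8 glial and neural markers and 6 of them were tested. Of the 6, 3 were higher in DPC and 3 higher in HMC, against 29.7% and 46.2% of all genes. The sums of the 8 were 43.0 to 47.9 FPKM in DPC and 199.9 to 200.7 FPKM in HMC. The myelin protein PMP22 was higher in DPC, at 16.7 ± 0.770 against 0.287 ± 0.0673 FPKM, and ERBB3 (HER3) and TUBB3 (TUBB4) were higher in HMC, at 38.5 ± 3.48 against 0.0284 ± 0.0194 FPKM and at 155.3 ± 3.63 against 12.1 ± 0.357 FPKM. The 11 endothelial and mural markers summed to 5.35 to 5.82 FPKM in DPC and 15.6 to 17.4 FPKM in HMC. Most of both sums was NOTCH3, at 4.54 ± 0.0823 (DPC) and 15.3 ± 1.02 FPKM (HMC). Of the 11, 9 did not pass the filter on low values, so the sums say little about vascular cells. The 7 immune and melanocyte markers summed to 9.36 to 9.95 FPKM in DPC and 14.1 to 19.4 FPKM in HMC. In the DPC libraries each of these 3 sums was below the level of pleiotrophin, and in the HMC libraries each was above it. The part of such cells in the values of the 2 genes was not tested.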

How the data were processed

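The authors deposited 1 table of FPKM per gene, with 1 column for each of the 6 libraries. Per the labels' protocols, total RNA was taken with Trizol and libraries were made with a stranded mRNA kit. Of the upstream tools, the submitters' processing notes list DESeq 1.20.0, HISAT2 2.2.1.0 and Trimmomatic, without roles. The read counter and the build: not given in the sources used here. No coordinates are printed for that reason.

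The deposited FPKM were whole multiples of 1 step per gene (100% of genes, relative tolerance 1e-09), so relative reads could be recovered. Replicates of a group differed beyond counting error, with a chi-square per degree of freedom of 2.63 to 5.74 over genes with at least 20 reads in a pair. Genes whose mean reached 0.5 FPKM were compared, DPC minus HMC, on log2(FPKM + 1). The tool was limma 3.58.1 (R 4.3.3), with a prior variance that follows the mean, two-sided, with Benjamini-Hochberg adjustment over all 11883 genes and a threshold of 0.05. The procedure was tested on simulated data with 50 genes changed at each of the folds 1.3, 1.5, 2 and 4. It recovered 56%, 74%, 92% and 100% of them, and 6.4% of all its calls were unchanged genes. Far fewer genes were changed there than were called in these data, so these rates may not hold here. Other values came from Python 3.11.15 with pandas 2.3.3 and scipy 1.17.1.

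The members and the gene lists were chosen with earlier results of these data known. Of 292 listed symbols 217 were matched, 73 of them through an older symbol checked against the row's annotation, and 75 are not analysed here. Older symbols stand in parentheses, and of rows with the same symbol the higher one was taken. By rule, the genes named are both members, the listed receptors, up to 3 tested genes of largest difference in each other list with its most abundant gene, the 10 most abundant genes with a symbol in DPC, the 5 nearest profiles and the nearest genes in RefSeq order. Exceptions are marked where they stand, and some genes under this rule are not reported. Alternatives were a pseudocount of 0.1, no filter, a filter at 5 FPKM, median-of-ratios and quantile scaling, no prior trend, a replicate block, each replicate left out and, added after seeing the data, current symbols only.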

Additional observations from a re-analysis of the deposited data

How the results depend on the processing

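Of 73 named genes tested, 70 kept their direction and their side of the threshold in each of the 13 settings that tested them. The filter at 5 FPKM tested 64 of the 73, and the other settings tested all of them. The call was lost in some for NCL, PMEL and thymosin beta 4 (TB4X), and the cause was not tested. NCL reversed under quantile normalization, to 0.05. The log2 difference of somatostatin, 9.58, was 9.76 with a pseudocount of 0.1 and between 9.37 and 9.74 with a replicate left out. That of pleiotrophin, 7.03, moved to 7.52 with a pseudocount of 0.1 and lay between 6.87 and 7.28 with a replicate left out, the pseudocount of 1 being close to its HMC values of 1.583 to 3.539 FPKM. Pleiotrophin pathway genes higher in DPC went from 26 to 17 where the mean had to reach 5 FPKM, so that fewer genes were tested, and to 15 with current symbols only, which was chosen after seeing the data. Low read numbers limit the HMC values of both genes.

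Whether the replicate numbers pair the libraries is not known, and the values cannot settle it. Same-numbered libraries had correlations of 0.023, 0.034 and 0.006 between their deviations, and the other pairs had -0.041 to 0.014. Correlations this close to 0, over 3 libraries per group, cannot exclude a shared origin. With the replicate block, calls over all genes went from 3531 and 5489 to 3473 and 5451, the log2 differences stayed 9.58 and 7.03, and the pathway counts stayed 18 and 30 for somatostatin and 26 and 24 for pleiotrophin.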
